A study of Homo sapiens with 12 samples.

Results

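The genes described here are the numbered zinc finger genes, those whose symbol is ZNF followed only by digits, that both cell lines expressed without dust. The array carries 443 such genes with 642 probes. A gene became a member if 1 of its probes had a detection p-value under 0.01 on all 4 control arrays, and the probe with the highest mean signal stood for the gene. This rule gave 207 members, 46.7% of the numbered ZNF genes. Over all 20045 named genes on the array, 41.1% met the same condition. Of the genes that did not enter, 45 were detected on both THP-1 control arrays but not on both BEAS-2B control arrays. Another 24 showed the reverse, 1 was detected in both lines by different probes, 14 were kept only through a dust group, and 152 had no kept probe. The members nearest the threshold were ZNF417, ZNF558 and ZNF83, each with a highest control detection p of 0.00909. ZNF436, ZNF503 and ZNF630 lay just outside, each at 0.0104. The members were thus chosen by the detection p-values of the control arrays, so control levels are a description without a test, and the dust-against-control comparisons share those arrays with the choice.

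RNA of 2 human lines was hybridised to 12 Illumina expression arrays of 1 chip, with 2 arrays in each of 6 groups. THP-1, a monocytic leukemia line, received 0.1% poultry dust extract for 1 h, the same for 3 h, or medium alone. BEAS-2B, an immortalized bronchial epithelial line, received 0.25% of the extract for 1 h or 3 h, or medium alone. All groups, controls included, had first been kept without serum overnight. The extract's strength differed between the lines, so line and dose cannot be told apart in any comparison between them. How long the controls were kept is not stated. Nothing in the labels says that replicates came from separate cultures, and a p-value here may therefore reflect technical spread alone.

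A label field of the THP-1 samples gives A459 as the source, and the line was checked on markers. Of 10 monocytic markers 9 were measured, and all 9 were detected on all 6 THP-1 arrays. Of these, 8 were detected on no BEAS-2B array, while CD14 was detected on all 6. Of 10 epithelial markers, all were detected on all 6 BEAS-2B arrays and 9 on no THP-1 array. Of 6 markers of the lung line A549, 2 (ALDH1A1 and AKR1C2) were detected on all 6 THP-1 arrays and 4 on none, and 3 were detected on all 6 BEAS-2B arrays. Between 14977 and 17045 of 47320 probes were well above background (detection p under 0.01) per array. On the dust arrays, between 183 and 205 members were well above background, and 167 members were so on all 12 arrays. The number of arrays limits the precision of every value here.

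C2H2 zinc finger proteins bind DNA through arrays of short zinc-coordinating fingers, and they form the largest class of human transcription factors. Many carry a KRAB domain, which recruits the corepressor TRIM28 and, through it, the histone methyltransferase SETDB1 and heterochromatin proteins of the CBX family. A large share of the KRAB genes arose by tandem duplication on chromosome 19, and many silence transposable elements. Others of the family have no KRAB domain and act as activators, as partners of corepressor complexes, or on RNA and ribosomes. Chromosome 19 held 101 of the 207 members, chromosome 7 held 16 and chromosome 16 held 13.

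Member levels are log2 normalized intensities. The members' median was 7.47 in THP-1 after 1 h of dust, 7.53 after 3 h and 7.74 in THP-1 control. In BEAS-2B it was 7.16 after 1 h, 7.23 after 3 h and 7.34 in control. The median SD between the 2 arrays of a group lay between 0.0876 in BEAS-2B control and 0.178 in THP-1 control. The probes with the highest control means were those of ZNF674, ZNF430 and ZNF486. The ZNF674 probe read between 14.07 and 14.32 on the 12 arrays, with overlapping ranges in the 2 lines. The lowest control means were those of ZNF837, ZNF404 and ZNF155. ZNF404 and ZNF155 were not well above background on either array of THP-1 after 1 h of dust, nor after 3 h. The members' probes were not matched to transcripts here, and whether a probe also reads the RNA of a close relative was not tested.

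After 3 h of dust extract in THP-1, the share of ZNF members that passed the test was close to that of other genes, and more of them were lower than higher. Of the 207 members, 71 were lower and 30 higher than in THP-1 control at an adjusted p under 0.05 (limma, Benjamini-Hochberg over all features). That is 48.8% of the members, against 47.9% of the 10703 features detected on the same 4 control arrays and 45.6% of all 15489 features. The lower calls took 34.3% of the members, against 30.2% of the detected features, and the higher calls 14.5% against 17.7%. The members' median change was -0.22 log2, with -0.11 for the detected features. A fall of at least 2-fold was fitted for 38 members and a rise of at least 2-fold for 6. Of the 10703 detected features, 1442 fell and 755 rose as far. The 38 include fitted values of members not well above background on either 3 h array, such as ZNF775. For called members of that kind, the lower bound of the fold did not exceed 1.93. With arrays scaled by their median in place of quantile normalization, the median of all features moved to -0.30 and that of the detected features to -0.42. That of the members moved to -0.61, with 10 members called higher and 115 lower. Median scaling called 49.7% of all features. Of its calls, 8% were higher among the members and 15.3% among the detected features. Relative to all features and to the detected features, the members' median was lower by both scalings, but the gap depended on dim members. Among the 135 members at least 1.5 times the lowest signal well above background on each control array, the median was -0.13, with -0.12 for the 8154 equally bright detected features. For members detected on all 12 arrays it was -0.09, with -0.05 for all features so detected. That choice leaves out members that fell below background. In RNA from whole cultures, fewer expressing cells and less RNA per cell cannot be told apart.

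**Figure D1:**
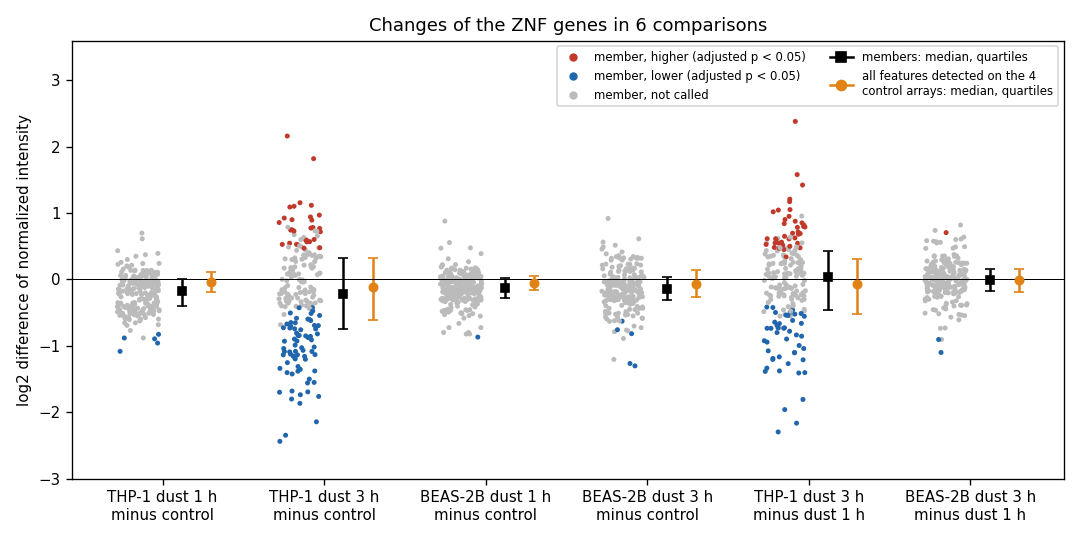
Log2 difference of normalized intensity (vertical axis) for each of the 207 ZNF members in 6 comparisons (horizontal axis). Red points were called higher, blue points lower and grey points neither (limma, adjusted p under 0.05). Black squares with bars give the members' median and quartiles, orange circles with bars the same for all features detected on the 4 control arrays. THP-1 after 3 h shows 30 red and 71 blue points against control, and its median of -0.22 lies below the -0.11 of the detected features.

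The falls in THP-1 at 3 h were led by ZNF395, ZNF217 and ZNF362, on chromosomes 8, 20 and 1. ZNF395, also known as papillomavirus binding factor, read 6.81 and 6.95 after 3 h of dust, against 9.23 and 9.41 in control. Its arrays after 1 h, at 8.74 and 8.94, lay between. The fall at 3 h was 5.42-fold (log2 -2.44 ± 0.16 SE, n = 2 arrays per group here and throughout, adjusted p = 1.37e-06). ZNF217, a partner of the CoREST corepressor complex and an amplified oncogene of breast cancer, read 7.82 and 7.49 after 3 h, against 10.04 and 9.97 in control. It fell 5.09-fold (log2 -2.35 ± 0.23, adjusted p = 1.92e-05). ZNF362 read 7.09 and 7.16 after 3 h, against 9.32 and 9.22 in control, and fell 4.42-fold (log2 -2.14 ± 0.14, adjusted p = 1.62e-06). In all of these genes both arrays at 3 h lay far below all other THP-1 arrays.

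ZNF106, an RNA-binding protein linked to splicing, read 8.02 and 8.38 after 3 h of dust, against 9.92 and 9.96 in control (log2 -1.74 ± 0.15, adjusted p = 7.81e-06). A further kept probe of ZNF106 gave -1.73. ZNF618, known to bind the methylation reader UHRF2, read 5.58 and 6.09 at 3 h, against 7.78 and 7.63 in control (log2 -1.87 ± 0.24, adjusted p = 0.000133). ZNF133, a KRAB repressor, read 5.56 and 5.89, against 7.27 and 7.71 in control (log2 -1.76 ± 0.20, adjusted p = 5.36e-05). ZNF175, a KRAB protein studied in HIV-infected macrophages as OTK18, read 4.92 and 6.40, against 7.26 and 7.66 (log2 -1.80 ± 0.38, adjusted p = 0.00293). Its fall was -1.07 without replicate 1 of the 3 h group. For ZNF618, ZNF133 and ZNF175, 1 of the 2 arrays at 3 h was not well above background. ZNF573 read 6.85 and 6.86 at 3 h, against 8.23 and 8.57 in control (log2 -1.55 ± 0.19, adjusted p = 0.000104), with both arrays detected.

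Some members dropped out of the measurable range. At 3 h, 17 members were not well above background on either THP-1 array, and 16 of these were among the 71 called lower. For such genes a fold is a lower bound, set against the lowest signal well above background. The bound was above 1 for 15 of the 17, so not every one of the 16 calls has a bound that shows a fall. ZNF775 was at least 1.69-fold lower (adjusted p = 1.18e-05), at measured means of 4.89 and 4.88 on the 3 h arrays, against 6.50 and 6.67 in control. ZNF616 was at least 1.62-fold lower (adjusted p = 8.19e-05), ZNF285 at least 1.56-fold (adjusted p = 1.51e-05) and ZNF589 at least 1.39-fold (adjusted p = 8.77e-05). With all dim members at their bound, the members' median change was -0.19 in place of -0.22.

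The rises were fewer and, beyond the leading pair, smaller. ZNF704, a relative of ZNF395, read 8.54 and 9.14 after 3 h of dust, against 6.37 and 6.99 in control, with 6.40 and 6.52 after 1 h. It rose 4.47-fold (log2 2.16 ± 0.24, adjusted p = 4.74e-05), in the opposite direction to ZNF395. ZNF140, a KRAB repressor, read 8.07 and 8.04 at 3 h, against 6.36 and 6.10 in control, and rose 3.53-fold (log2 1.82 ± 0.19, adjusted p = 3.06e-05). For both genes the 3 h arrays stood more than 1 log2 unit above every other THP-1 array. ZNF746, known as PARIS, a parkin substrate that represses PPARGC1A, read 10.29 and 10.13, against 8.91 and 9.20 in control (log2 1.16 ± 0.17, adjusted p = 0.00034). ZNF800 read 9.77 and 9.55, against 8.50 and 8.61 (log2 1.10 ± 0.18, adjusted p = 0.000542). ZNF189, a KRAB family member, read 10.17 and 10.05, against 8.91 and 9.13 (log2 1.09 ± 0.14, adjusted p = 0.000114).

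ZNF600 read 7.93 and 7.81 at 3 h, against 7.17 and 6.34 in control, so its control arrays lay far apart but below both 3 h arrays. Its rise of 1.12 ± 0.24 (adjusted p = 0.00341) was 0.71 without control replicate 2. ZNF35 rose by 0.97 ± 0.13 (adjusted p = 0.000151), and its 3 h arrays, at 8.27 and 8.07, did not overlap the control arrays at 7.12 and 7.28. ZNF557 read 9.97 and 9.94, against 9.54 and 8.51, with a fitted difference of 0.93 ± 0.32 (adjusted p = 0.0343). That call ended without either 3 h array or without control replicate 2 (adjusted p up to 0.296). The difference was 1.44 without control replicate 1 and 0.41 without control replicate 2. ZNF324 rose by 0.86 ± 0.15 (adjusted p = 0.0011), and that call ended under median scaling (adjusted p = 0.0945).

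**Figure D2:**
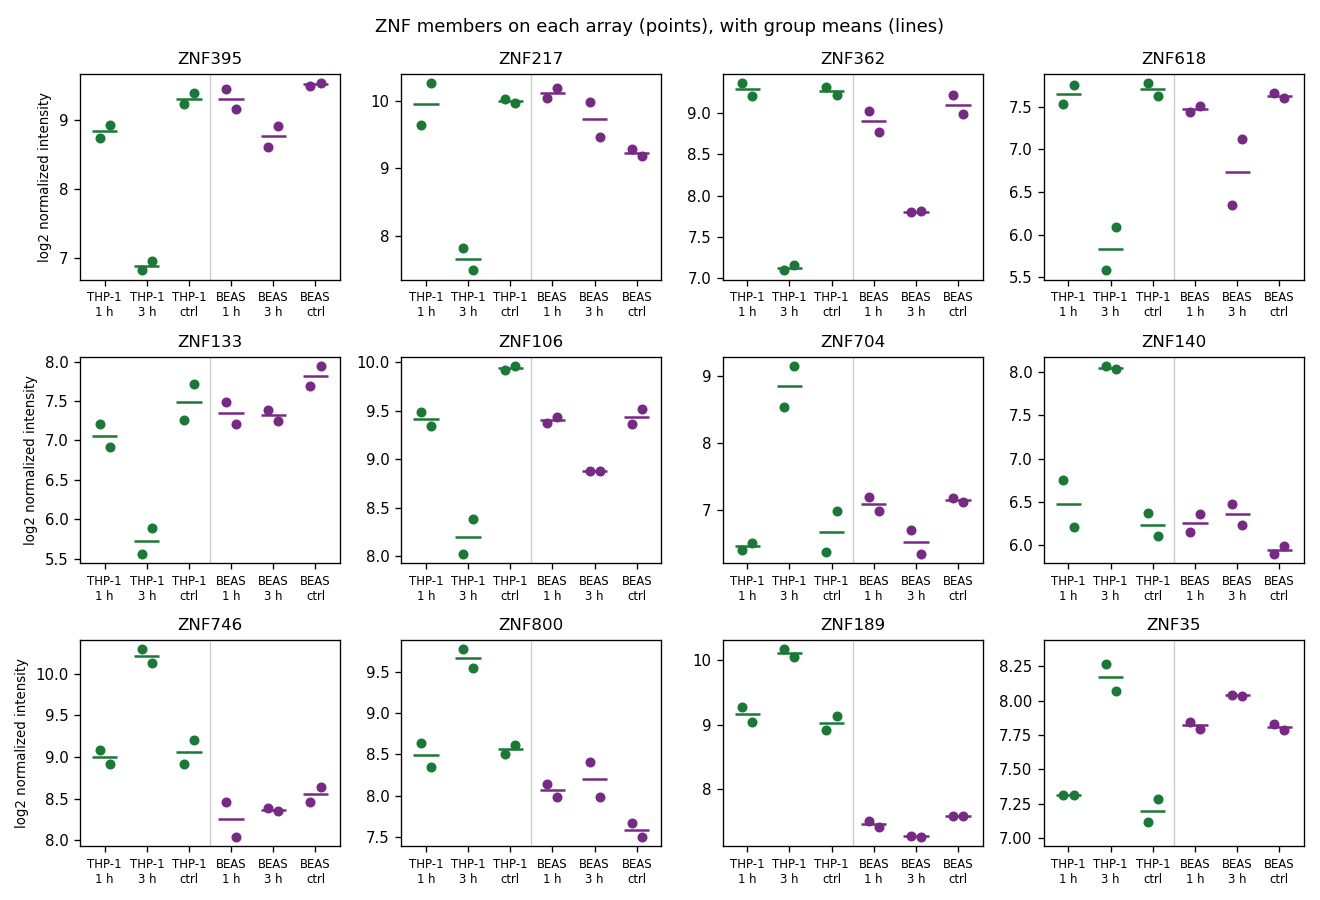
Log2 normalized intensity (vertical axis) of 12 ZNF members on each of the 12 arrays, with groups on the horizontal axis (ctrl, medium alone). Points are arrays, lines group means, green THP-1 and purple BEAS-2B, and each panel has its own vertical range. The 6 falls (ZNF395 to ZNF106) and 6 rises (ZNF704 to ZNF35) stand out in THP-1 at 3 h, where ZNF395 reads 6.81 and 6.95 and ZNF704 reads 8.54 and 9.14.

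The stretch of 250 bases before the annotated start is shown for a pair of members that fell and a pair that rose, because these windows differ in the motif letters they hold. Sequences are from RefSeq (GRCh38.p14), 5′ to 3′ on the gene's strand, with motif matches in capitals. ZNF217 lies on the minus strand at chr20:53593840-53594089 and ZNF362 on the plus strand at chr1:33256242-33256491. ZNF140 lies on the plus strand at chr12:133080673-133080922 and ZNF189 on the plus strand at chr9:101398601-101398850.
ZNF217: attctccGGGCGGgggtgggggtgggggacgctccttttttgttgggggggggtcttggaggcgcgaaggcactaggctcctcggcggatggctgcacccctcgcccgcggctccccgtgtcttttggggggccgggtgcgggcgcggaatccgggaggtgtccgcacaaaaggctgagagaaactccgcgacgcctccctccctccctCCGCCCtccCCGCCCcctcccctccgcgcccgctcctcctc
ZNF362: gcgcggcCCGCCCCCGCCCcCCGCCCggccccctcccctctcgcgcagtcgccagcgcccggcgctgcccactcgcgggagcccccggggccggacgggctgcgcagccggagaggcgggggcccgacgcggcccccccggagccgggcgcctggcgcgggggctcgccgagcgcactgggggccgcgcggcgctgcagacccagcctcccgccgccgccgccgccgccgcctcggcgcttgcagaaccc
ZNF140: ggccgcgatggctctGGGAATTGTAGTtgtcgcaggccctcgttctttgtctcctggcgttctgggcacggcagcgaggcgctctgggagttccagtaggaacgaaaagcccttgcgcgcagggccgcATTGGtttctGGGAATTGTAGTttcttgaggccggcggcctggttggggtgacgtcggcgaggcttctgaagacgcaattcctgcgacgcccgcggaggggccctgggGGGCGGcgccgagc
ZNF189: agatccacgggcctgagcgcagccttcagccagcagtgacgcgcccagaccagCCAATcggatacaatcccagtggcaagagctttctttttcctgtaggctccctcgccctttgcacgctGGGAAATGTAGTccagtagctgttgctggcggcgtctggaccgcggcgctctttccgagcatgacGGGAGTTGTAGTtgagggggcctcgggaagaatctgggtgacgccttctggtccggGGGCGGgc
The windows of ZNF217 and ZNF362 held only GC boxes (GGGCGG or its reverse complement) among the motifs searched, 3 in each. The windows of ZNF140 and ZNF189 each held 1 GC box, 1 CCAAT box and 2 matches to the ZNF143 motif (ACTACA, any 2 bases, TCCC), read on the reverse strand. The ZNF143 motif was added to the search after these sequences had been seen. A match describes letters and not binding. These windows were picked for their contrast and do not stand for all members that fell or rose. Of members called in THP-1 at 3 h, 25 higher and 61 lower had a promoter window. The CCAAT box was found in 44% of the higher and 44.3% of the lower members. The GC box was found in 56% and 67.2%, and the ZNF143 motif in 20% and 11.5%. The ZNF143 motif thus occurred in 5 of the 25 higher and 7 of the 61 lower windows. ZNF140 and ZNF189, whose sequences prompted its search, are among those 5. The ZNF143 shares therefore do not show a difference between members that rose and members that fell.

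A promoter was matched for 180 of the 207 members. Both strands were searched, and motifs may overlap. The ZNF143 motif was found in 10% of the members' windows, in 4.40% of those of 6859 named genes detected on the 4 control arrays, and in 1.86% of all 27305 promoters. Without ZNF140 and ZNF189, whose sequences prompted the search, it was found in 8.99% of 178 members' windows, an alternative chosen after seeing the data. The CCAAT box (CCAAT) was found in 47.8% of the members, against 36.8% of the detected genes and 33.0% of all promoters. The ETS motif (CCGGAAGT) was found in 13.3%, against 8.32% and 3.64%, and the NRF1 motif (GCGC, any base, TGCGC) in 13.3%, against 12.4% and 5.53%. The GC box was found in 63.9% of the members, against 69.1% and 42.3%. A TATA box (TATAAA) was rare among the members, at 1.11%, against 4.71% and 11.1%. For motifs of factors known from stress and inflammation, the shares were 5% for AP-1 (TGANTCA), against 3.47% and 6.60%, and 1.11% for NF-kB (GGGA, any 2 bases, TTCC), against 1.37% and 1.42%. The CRE (TGACGTCA) was found in 3.89%, against 3.25% and 1.77%.

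**Figure D3:**
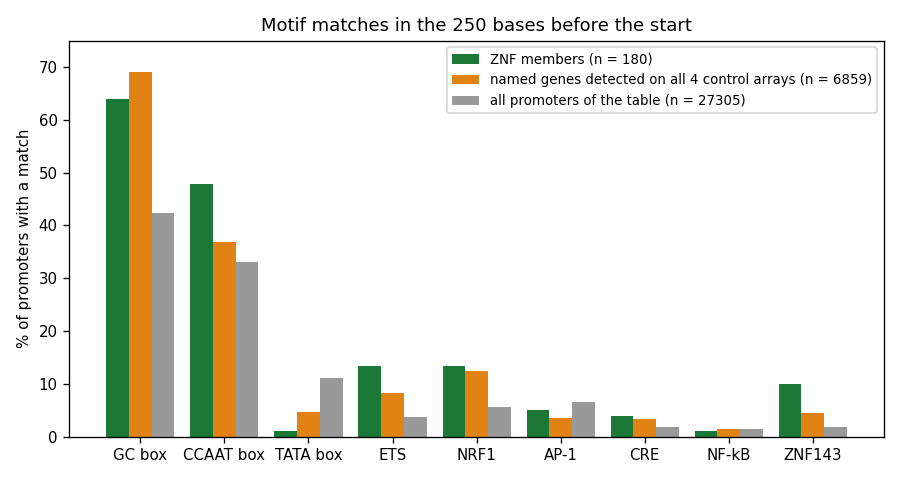
Share of promoters (vertical axis, percent) with at least 1 match to each motif (horizontal axis) in the 250 bases before the start. Green bars are the ZNF members, orange bars named genes detected on all 4 control arrays and grey bars all promoters of the table. The members stand above both other sets for the CCAAT box (47.8%), the ETS motif (13.3%) and the ZNF143 motif (10%), and below both for the TATA box (1.11%).

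Among the followed members that act on RNA, ribosomes or the nuclear matrix, ZNF598, ZNF593 and ZNF638 rose in THP-1 at 3 h. ZNF598, the ubiquitin ligase that marks collided ribosomes, read 10.47 and 10.42 after 3 h, against 9.51 and 9.85 in control (log2 0.77 ± 0.16, adjusted p = 0.00265). A further ZNF598 probe gave 1.31. ZNF593, whose yeast homolog helps to export the large ribosomal subunit, read 9.82 and 9.94, against 9.21 and 8.76 (log2 0.90 ± 0.17, adjusted p = 0.00131). ZNF622, whose yeast homolog matures the large subunit in the cytoplasm, read 9.79 and 9.72, against 9.68 and 9.83 (adjusted p = 0.988). ZNF638, a nuclear matrix protein that silences unintegrated retroviral DNA, rose by 0.89 ± 0.19 (adjusted p = 0.00334), a call that ended under median scaling (adjusted p = 0.175). ZNF207, which supports spindle checkpoint protein BUB3, differed by 0.09 ± 0.19 (adjusted p = 0.741).

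Among sequence-specific regulators, ZNF281, a GC-rich promoter binding factor of stem cells, rose by 0.94 ± 0.17 (adjusted p = 0.00124). Its level averaged 9.70 ± 0.0861 at 3 h, against 8.76 ± 0.346 in control (SD, n = 2 each), and the groups did not overlap. ZNF331, an imprinted KRAB gene, rose by 0.75 ± 0.15 (adjusted p = 0.00209). ZNF410, an activator known for its narrow action on the CHD4 gene, rose by 0.59 ± 0.14 (adjusted p = 0.00559), and ZNF274, a KRAB protein that brings SETDB1 to zinc finger gene clusters, by 0.60 ± 0.15 (adjusted p = 0.00784). The calls of ZNF331, ZNF410 and ZNF274 ended under median scaling, at adjusted p of 0.243, 0.418 and 0.301, and that of ZNF274 also without replicate 1 of the 3 h group (adjusted p = 0.0606).

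ZNF451, a SUMO ligase, fell by 0.73 on the log2 scale (± 0.15, adjusted p = 0.00255), but a further probe of the gene gave 0.21 and the call ended with the mean of its kept probes (adjusted p = 0.212). The differences of 7 more followed genes were not called. They were 0.22 ± 0.27 for ZNF91, which represses SVA elements, -0.40 ± 0.16 for the promoter activator ZNF143, and -0.36 ± 0.24 for ZNF148. They were -0.19 ± 0.18 for ZNF131, 0.27 ± 0.19 for ZNF263, -0.41 ± 0.17 for the BRCA1 partner ZNF350, and 0.04 ± 0.14 for ZNF644, a partner of EHMT2. The adjusted p of these lay between 0.0614 (ZNF143) and 0.861 (ZNF644). Under median scaling ZNF644 turned to -0.40 (adjusted p = 0.0369).

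The KRAB corepressor and heterochromatin partners, a list of 28 genes of which 25 were measured, were more often lower than higher in THP-1 at 3 h. Of these 25, 11 were lower and 2 higher, with a median of -0.38. This is 44% lower and 8% higher, against 26.5% and 19.1% of all features. EHMT2, a histone methyltransferase, read 5.15 and 5.67 after 3 h, against 7.03 and 7.10 in control (fitted log2 -1.66 ± 0.20, adjusted p = 8.46e-05). Both of its 3 h readings lay under the lowest signal well above background on those arrays (5.88 and 5.79). Its fitted -1.66 is therefore not an exact value. DNMT1, the maintenance DNA methyltransferase, fell by 0.93 on the log2 scale (± 0.20, adjusted p = 0.00314), and SETDB1 by 0.64 (± 0.15, adjusted p = 0.00615). TRIM28, the shared KRAB corepressor, read 8.53 and 9.15, against 8.79 and 9.10, and did not pass (log2 -0.11 ± 0.20, adjusted p = 0.693). The 2 that rose were DAXX, a histone chaperone, by 1.34 ± 0.18 (adjusted p = 0.000187), and CHD4, the remodeller of the NuRD complex, by 0.70 ± 0.18 (adjusted p = 0.0102). None of the 25 was called in THP-1 at 1 h or in BEAS-2B at either time. Of all features, 1.64% were called in THP-1 at 1 h, 1.16% in BEAS-2B at 1 h and 5.44% at 3 h. With shares this low, the absence of calls among 25 genes does not set them apart. Of 36 genes of the ZFP, ZBTB, ZSCAN and ZKSCAN families detected on the 4 control arrays, 7 were higher and 11 lower in THP-1 at 3 h. These shares of 19.4% and 30.6%, with a median of -0.13, were close to those of the detected features. The latter had 17.7% higher and 30.2% lower, with a median of -0.11.

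After 1 h in THP-1, few members passed the test, and the members' median lay slightly below control. Of the members, 5 were lower and 0 higher, 2.42%, against 1.29% of the detected features and 1.64% of all features. Lower calls alone were 0.355% of the detected features and 0.387% of all. At an unadjusted p under 0.05 there were 49 members, 23.7%, against 10.9% and 11.9%. ZNF564 read 7.02 and 7.29 after 1 h, against 8.22 and 8.25 in control (log2 -1.08 ± 0.22, adjusted p = 0.0358). ZNF581 read 8.81 and 8.59, against 9.79 and 9.40 (log2 -0.89 ± 0.16, adjusted p = 0.0169). ZNF816 differed by -0.83 ± 0.17 (adjusted p = 0.0403), ZNF616 by -0.96 ± 0.20 (adjusted p = 0.0495) and ZNF776 by -0.88 ± 0.16 (adjusted p = 0.0226). ZNF616 and ZNF776 had 1 array not well above background after 1 h. All 5 lie on chromosome 19, and each call ended when 1 or more single arrays were left out (adjusted p up to 0.265).

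Both dust arrays at 1 h lay below both THP-1 control arrays for 87 members, 42% of them, against 22.6% of the detected features and 22.4% of all. Both lay above for 9 members, 4.35%, against 15.1% and 16%. The members' median was -0.17, against -0.04 for the detected features. Among the 135 brighter members the median was -0.10, with -0.04 for equally bright detected features. Under median scaling the medians of the members and the detected features were -0.26 and -0.11. The median of the members on chromosome 19 was -0.21, and that of the members on other chromosomes -0.14.

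The step between 1 h and 3 h in THP-1 uses no array that chose the members. Here 39 members were higher and 46 lower at 3 h than at 1 h, 41.1% of the members, against 41.8% of the detected features and 39.5% of all features. The higher calls were 18.8% of the members, against 15.5% of the detected features, and the lower calls 22.2% against 26.4%. The members' median was 0.04, against -0.07 for the detected features. Under median scaling it turned to -0.29, with 12 members higher and 69 lower. That scaling called 41.0% of all features. Of its calls, 14.8% were higher among the members and 17.1% among the detected features. The balance depended on the filter too: 39 were higher and 29 lower with detection on all 12 arrays, and 29 were higher and 29 lower among the 135 brighter members (median 0.09). ZNF704 (log2 2.38 ± 0.24, adjusted p = 3.66e-05), ZNF140 (1.58 ± 0.19, adjusted p = 0.000113) and ZNF746 (1.21 ± 0.17, adjusted p = 0.000349) led the rises. ZNF217 (-2.30 ± 0.23, adjusted p = 3.24e-05), ZNF362 (-2.16 ± 0.14, adjusted p = 2.45e-06) and ZNF395 (-1.96 ± 0.16, adjusted p = 8.82e-06) led the falls.

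ZNF234 read 8.15 and 8.01 at 3 h, against 6.46 and 6.84 at 1 h, a rise of 1.42 ± 0.26 (adjusted p = 0.00163). Its control arrays, at 6.94 and 7.91, lay nearly 1 log2 unit apart and between the times, and 3 h did not differ from control (adjusted p = 0.0639). ZNF800 rose by 1.17 ± 0.18 (adjusted p = 0.00049). ZNF618 fell by 1.81 on the log2 scale (± 0.24, adjusted p = 0.000232), with 1 array at 3 h not well above background. ZNF775 was at least 1.38-fold lower at 3 h than at 1 h (adjusted p = 5.73e-05). Of the 17 members not well above background on either 3 h array, 12 were called lower than at 1 h. The lower bound of the fold was above 1 for 9 of the 17, so some of these calls have no bound that shows a fall.

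In BEAS-2B few members passed the test. After 1 h, ZNF20 was the 1 member called, at 7.13 and 7.02 with dust, against 7.90 and 7.98 in control (log2 -0.87 ± 0.17, adjusted p = 0.0375). This is 0.483% of the members, against 0.738% of the detected features and 1.16% of all features, most of which were higher (0.673% and 1.08%) and few lower (0.0654% and 0.0775%). At an unadjusted p under 0.05 there were 26 members, 12.6%, against 5.01% and 6.31%. The call ended without any 1 of 6 arrays (adjusted p up to 0.374). ZNF217 read 10.04 and 10.19 after 1 h, against 9.28 and 9.19 in control, arrays that did not overlap, but the difference did not pass (log2 0.88 ± 0.23, adjusted p = 0.153). Both arrays at 1 h lay below both control arrays for 45.9% of the members, against 30.6% of the detected features and 27% of all, and the members' and detected features' medians were -0.13 and -0.06. Both arrays lay above for 21 members, 10.1%, against 13.4% and 16.2%.

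After 3 h in BEAS-2B, 5 members were lower and 0 higher, 2.42% of the members, against 4.42% of the detected features and 5.44% of all features. Lower calls alone were 2.06% of the detected features and 2.2% of all, and higher calls 2.36% and 3.24%. At an unadjusted p under 0.05 there were 43 members, 20.8%, against 21.3% and 21.2%. ZNF362 read 7.80 and 7.81 after 3 h, against 9.22 and 8.99 in control, and fell 2.47-fold (log2 -1.30 ± 0.14, adjusted p = 0.000754). Of the 5 calls, that of ZNF362 alone held without each array in turn. ZNF395 read 8.62 and 8.92, against 9.51 and 9.55 (log2 -0.76 ± 0.16, adjusted p = 0.0226). ZNF285 differed by -0.63 ± 0.15 (adjusted p = 0.0343). ZNF671 averaged 5.51 ± 0.717, against 6.78 ± 0.0138 (SD, n = 2 each, log2 -1.27 ± 0.30, adjusted p = 0.0371), with 1 array at 3 h not well above background, and was -0.76 without replicate 1 of the 3 h group. ZNF433 was at least 1.25-fold lower (adjusted p = 0.034). Under median scaling 16 members were lower and 0 higher, and that scaling also called more of all features, 7.04%. Of its calls among the detected features, 35.0% were higher.

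From 1 h to 3 h in BEAS-2B, 3 members passed, 1.45% of the members, against 1.94% of the detected features and 2.72% of all features. ZNF362 was lower at 3 h, with a difference of -1.10 ± 0.14 (adjusted p = 0.00396), and this call ended without 1 array (adjusted p = 0.0588). ZNF837 was at least 1.12-fold lower (adjusted p = 0.0399), and ZNF581 was higher by 0.71 ± 0.16 (adjusted p = 0.0424). The calls of ZNF837 and ZNF581 each ended without several single arrays (adjusted p up to 0.269). ZNF362 was thus the member called lower in every 3 h comparison in both lines, the step from 1 h included.

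Whether the dust effect differed between the lines was tested with an interaction term. At 1 h, limma called 0 members, with 7 at an unadjusted p under 0.05 (3.38% of the members, against 6.49% of all features). At 3 h it called 55, of which 38 had a higher and 17 a lower effect in BEAS-2B than in THP-1. This is 26.6% of the members, against 25.2% of the detected features and 26.5% of all features. With median scaling, 54 were higher and 6 lower, with the median of all features at 0.25. That scaling called 29.9% of all features. Of its calls, 90% were higher among the members and 83.5% among the detected features. Of the 55, 14 were not well above background on either array of a 3 h group, 12 in THP-1 and 2 in BEAS-2B. Their fitted differences are not exact values, and the 12 are among the 38 with a higher effect. At the lowest signal well above background, ZNF74 went from 0.99 to -0.03, ZNF404 from 0.70 to -0.12 and ZNF589 from 1.20 to -0.01. The rest of the 14 kept their sign at smaller values, ZNF285 moving from 0.93 to 0.01 and ZNF490 from 1.42 to 0.86. Without BEAS-2B control replicate 1 the count was 31, and without replicate 2 it was 36.

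ZNF217 differed most in the positive direction. Its effect at 3 h was 0.49 ± 0.23 in BEAS-2B and -2.35 ± 0.23 in THP-1, a difference of 2.84 ± 0.32 (adjusted p = 0.000184). ZNF296 had an effect of 0.92 ± 0.24 in BEAS-2B, which did not pass alone (adjusted p = 0.0534), and -1.08 ± 0.24 in THP-1. The difference was 2.00 ± 0.34 (adjusted p = 0.00196). ZNF704 differed most in the negative direction, with -0.63 ± 0.24 in BEAS-2B and 2.16 ± 0.24 in THP-1 (difference -2.79 ± 0.34, adjusted p = 0.000283). For ZNF395 the effect had the same sign in both lines and was smaller in BEAS-2B (difference 1.68 ± 0.23, adjusted p = 0.0005). ZNF362 fell in both lines, with -1.30 ± 0.14 in BEAS-2B and -2.14 ± 0.14 in THP-1.

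**Figure D4:**
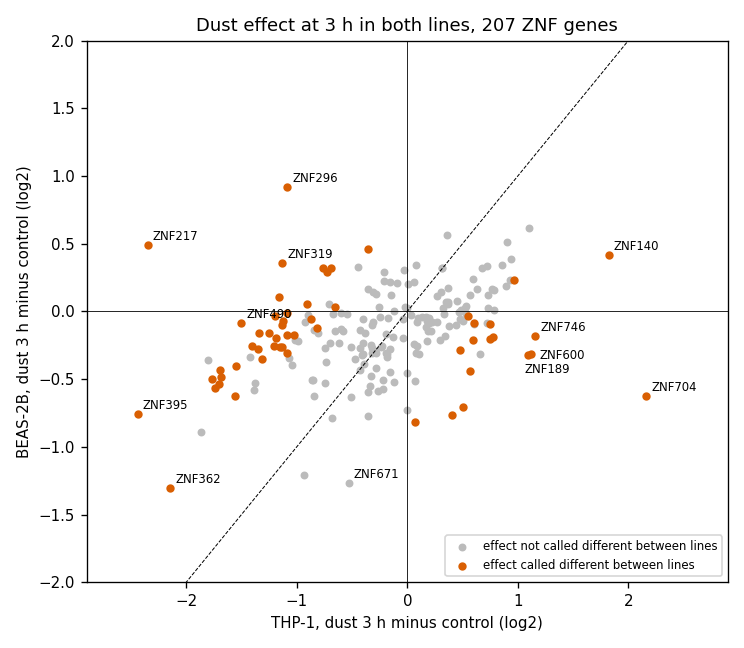
Dust effect at 3 h (log2 dust minus control) in THP-1 (horizontal axis) and in BEAS-2B (vertical axis) for the 207 ZNF members. Each point is a gene, orange where the effect was called different between the lines (limma interaction, adjusted p under 0.05), and the dashed line marks equal effects. Members not well above background at 3 h are drawn at their fitted values. ZNF217 lies at -2.35 in THP-1 and 0.49 in BEAS-2B, ZNF704 at 2.16 and -0.63, and ZNF362 is low in both.

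Across the 207 members, the effects at 3 h in the lines had a Pearson correlation of 0.35, and across all features one of 0.40. These are descriptions across genes of 1 chip normalized together, and genes are not replicates. In each line alone, the effect was below 0 for 60.9% of the members in THP-1 and 71.0% in BEAS-2B. Of the detected features, 57.4% and 58.8% were below 0. The effect was below 0 in both lines for 101 members. The counts for both lines together were not set beside a share over all features and are descriptions only. ZNF362, ZNF395 and ZNF285 were called lower in both.

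The lines also differed in the members' levels. After 1 h of dust, on arrays that did not choose the members, 81 members were lower and 32 higher in BEAS-2B than in THP-1. This is 54.6% of the members, against 57.8% of the detected features and 61.7% of all features. Lower calls took 39.1% of the members and 29.1% of the detected features. Higher calls took 15.5% of the members and 28.7% of the detected features. The members' median difference was -0.28, against -0.01 for the detected features. Under median scaling 49 members were lower and 44 higher, the median of all features was 0.16 and that of the members -0.07. Higher calls were then 47.3% of all calls among the members and 64.1% among the detected features. Without BEAS-2B 1 h replicate 2, 75 members were called.

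**Figure D5:**
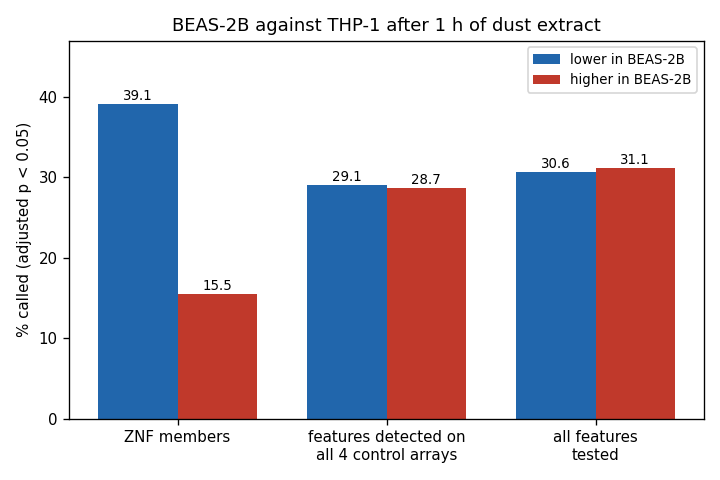
Share of features called different between BEAS-2B and THP-1 after 1 h of dust (vertical axis, percent, limma, adjusted p under 0.05) for 3 sets of features (horizontal axis). Blue bars give features lower in BEAS-2B and red bars features higher in BEAS-2B. Among the ZNF members 39.1% were lower and 15.5% higher, while the bars of the detected features are nearly level at 29.1% and 28.7%.

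ZNF684 stood furthest apart, at 6.02 and 6.12 in BEAS-2B and 9.75 and 9.70 in THP-1 after 1 h of dust. It was 12.6-fold lower in BEAS-2B (log2 -3.66 ± 0.21, adjusted p = 1.23e-07). ZNF789 read 7.49 and 7.48 in BEAS-2B and 9.85 and 10.07 in THP-1 (log2 -2.47 ± 0.15, adjusted p = 1.3e-07). ZNF438 differed by -2.70 ± 0.28 (adjusted p = 1.1e-05), ZNF671 by -2.07 ± 0.30 (adjusted p = 0.000143) and ZNF83 by -1.83 ± 0.19 (adjusted p = 9.48e-06). ZNF83 had 1 BEAS-2B array not well above background. In the other direction, ZNF609 read 7.65 and 7.10 in BEAS-2B, against 5.20 and 5.92 in THP-1 (log2 1.81 ± 0.27, adjusted p = 0.000189). ZNF232 differed by 1.51 ± 0.21 (adjusted p = 9.07e-05), ZNF248 by 1.51 ± 0.28 (adjusted p = 0.000729), ZNF329 by 1.39 ± 0.18 (adjusted p = 7.61e-05) and ZNF23 by 1.17 ± 0.16 (adjusted p = 8.74e-05). ZNF609 and ZNF248 had 1 THP-1 array not well above background after 1 h.

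Between the control arrays, which chose the members, the differences are given without a test. The members' median difference, BEAS-2B minus THP-1, was -0.32, against 0.00 for the detected features. At least 2-fold lower in BEAS-2B were 41 members (19.8%, against 14.1% of the detected features), and at least 2-fold higher were 8 (3.86%, against 14.3%). The lowest were ZNF684 (-3.92), ZNF438 (-2.61), ZNF789 (-2.15), ZNF83 (-2.05) and ZNF671 (-1.83). The highest were ZNF593 (1.60), then ZNF329, ZNF232 (1.46), ZNF609 (1.32) and ZNF358 (1.31). For ZNF593, the ribosome export factor, the controls read 10.59 and 10.57 in BEAS-2B, against 9.21 and 8.76 in THP-1.

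Members on chromosome 19 and elsewhere were both called in the larger comparisons. In THP-1 after 3 h of dust, 13 of the 101 were higher and 31 lower, against 17 and 40 of the 106 on other chromosomes. That is 12.9% and 30.7% on chromosome 19, and 16.0% and 37.7% elsewhere. Of the detected features, 17.7% were higher and 30.2% lower. Between the lines after 1 h of dust, 13 of the 101 were higher and 42 lower in BEAS-2B, against 19 and 39 of the 106. The shares were 12.9% and 41.6% on chromosome 19, and 17.9% and 36.8% elsewhere. For the detected features they were 28.7% and 29.1%.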

How the data were processed

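Per the file headers, the authors' deposited raw table gives a signal (intensity on a linear scale) with its standard error, the number of beads as a count, and a detection p-value per probe and array. Per the submitters' processing notes, GenomeStudio 2011.1 was used. The authors' deposited value table, also intensity, served as an alternative. Groups came from the sample titles. No value column was left unmapped.

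Signals were background-corrected and quantile-normalized with neqc of limma 3.58.1 (offset 16), giving log2 intensities. Probes detected (p under 0.01) on both arrays of any group were kept, 19045 of 47320, and 1 probe per gene was used. A linear model with 6 group means (6 residual degrees of freedom) was fitted over all 15489 features with lmFit and eBayes, and p-values were adjusted within each comparison (Benjamini-Hochberg, 0.05). The fit was tested on simulated data. Symbols came from the probe annotation and promoters from RefSeq tables (GRCh38.p14). Protein domains were not used here.

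The members, lists and naming rule were chosen with earlier results of these data known. Named were the 12 largest rises and falls among called, non-overlapping members in THP-1 at 3 h, the 5 largest elsewhere, level and threshold extremes, and a list of followed genes. The choice of members named as neighbours or by further probes came after seeing values. The dust comparisons of a line share its control arrays. The alternatives were other background, scaling, filter, probe and offset settings, the authors' table, each line on its own, each array left out, and the replicate number as a block.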

Additional observations from a re-analysis of the deposited data

Results flagged for a closer look

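The dust effect at 3 h differed between the lines, by limma's interaction term, for 55 members, and the 10 named members are those with the largest fitted differences in each direction (BEAS-2B effect minus THP-1 effect, log2 ± SE). Higher in BEAS-2B were ZNF217 (2.84 ± 0.32, adjusted p = 0.000184), ZNF296 (2.00 ± 0.34, adjusted p = 0.00196), ZNF395 (1.68 ± 0.23, adjusted p = 0.0005), ZNF319 (1.49 ± 0.25, adjusted p = 0.00206) and ZNF490 (1.42 ± 0.24, adjusted p = 0.00213). Their effects in BEAS-2B were 0.49, 0.92, -0.76, 0.36 and -0.08, against -2.35, -1.08, -2.44, -1.13 and -1.50 in THP-1. ZNF490 was not well above background on either THP-1 array at 3 h, where it was at least 1.93-fold lower than in control, so its fitted -1.50 and 1.42 are not exact values. With ZNF490 at that bound, the difference was 0.86.

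Lower in BEAS-2B were ZNF704 (-2.79 ± 0.34, adjusted p = 0.000283), ZNF600 (-1.44 ± 0.34, adjusted p = 0.0114), ZNF189 (-1.41 ± 0.20, adjusted p = 0.000603), ZNF140 (-1.41 ± 0.27, adjusted p = 0.00374) and ZNF746 (-1.34 ± 0.24, adjusted p = 0.00291). Their effects in BEAS-2B were -0.63, -0.32, -0.32, 0.42 and -0.18, against 2.16, 1.12, 1.09, 1.82 and 1.16 in THP-1. The call of ZNF600 ended without BEAS-2B control replicate 1 (adjusted p = 0.0505). Line and extract strength cannot be told apart in these differences.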

How the results depend on the processing

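With 1 array left out at a time, the number of called members ranged from 85 to 100 in THP-1 at 3 h (101 with all arrays), 0 to 4 in THP-1 at 1 h, 0 to 3 in BEAS-2B at 1 h and 1 to 11 in BEAS-2B at 3 h. It ranged from 59 to 89 for 3 h against 1 h in THP-1, 0 to 6 in BEAS-2B, 0 to 0 for the interaction at 1 h, 31 to 61 at 3 h, and 75 to 116 for the lines after 1 h of dust. Of the 101 calls in THP-1 at 3 h, 71 (19 higher, 52 lower) held without each array in turn, as did 40 of 85 in the THP-1 step, 26 of 55 interaction calls at 3 h and 57 of 113 line differences. For THP-1 at 1 h, 5 calls became 0 with each line fitted alone, 2 without the filter, 3 with detection on all 12 arrays and 2 among the 135 members at least 1.5 times the lowest signal well above background. For BEAS-2B at 1 h, 1 call became 0 without the filter, and 2 with the mean of all kept probes or among the 263 members of a rule at detection p under 0.05. For BEAS-2B at 3 h, 5 calls became 8 without background correction, with the authors' table or with offset 50, 16 under median scaling, 9 with each line alone, and 3 without the filter or among the 135. For BEAS-2B 3 h against 1 h, 3 became 5 with each line alone and 1 without the filter. The 55 interaction calls at 3 h were 34 among the 135.

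ZNF644 turned from 0.04 to -0.40 in THP-1 at 3 h under median scaling. Of 138 named results 73 were called, and 52 held under all alternatives run. The labels give no shared batch or day for a replicate number. The differences between replicates correlated between groups at -0.10 to 0.34, with 7 of 15 pairs of groups over 0.1, so the arrays did not all deviate with those of their own number, and the numbers were not used as pairs. With the replicate block, BEAS-2B at 3 h had 9 calls in place of 5. The cause of these shifts was not tested.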

Other observations

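Genes next to each other in the genome did not always move together. Of 40 pairs of members that are neighbours in the gene table, 30 on chromosome 19, 9 had both genes called in THP-1 at 3 h. In 4 pairs both were lower, in 0 both were higher and in 5 they went opposite ways. Taken singly, 34.3% of all members were lower and 14.5% higher. Whether neighbours differ in this from other pairs of members was not tested. ZNF84 was in an opposite pair on each side. On chromosome 12, ZNF84 lies between ZNF26 and ZNF140: ZNF84 had -0.99 ± 0.31 (adjusted p = 0.0227), ZNF26 0.59 ± 0.20 (adjusted p = 0.0337) and ZNF140 1.82 ± 0.19. The 3 h arrays of ZNF84 read 5.92 and 7.10, and a further probe of the gene gave -1.01. On chromosome 19, ZNF564 and its neighbour ZNF490 were both lower, at -1.31 ± 0.22 (adjusted p = 0.000649) and, not well above background at 3 h, by at least 1.93-fold. ZNF324 and its neighbour ZNF446 went opposite ways, at 0.86 ± 0.15 and, not well above background at 3 h, by at least 1.47-fold lower (adjusted p = 0.000721).

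For 47 members, 50 further kept probes gave a second reading of the change in THP-1 at 3 h. The sign differed for 16 of the 50. For called members it differed for 3 of 23, those of ZNF155, ZNF451 and ZNF473. ZNF155 was not well above background on either array at 3 h, and its further probe gave 0.24. ZNF473 had 0.53 on the probe used and -0.28 on the further one.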
